A study of Mus musculus with 2 samples.

Results

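The AP-1 subunits, Egr1 and Myc are early response genes, and what was left of such a response in chondrocytes 24 h after mechanical loading was examined here. The 10 genes were Fos, Fosb, Fosl1 and Fosl2 of the Fos family, Jun, Junb and Jund of the Jun family, and Atf3, Egr1 and Myc. They were taken by name among 20660 genes with a named probe, and their probes were those that the files list under a RefSeq transcript of the gene, 11 probes in all. Primary chondrocytes of 6-day-old C57BL/6J mice were seeded in fibronectin-coated silicon chambers and stretched after 48 h by 10% at 0.5 Hz for 30 min. One group held RNA from before the loading and the other RNA from 24 h after it, with 1 array each, and Cy3-labelled cRNA from 0.1 µg of RNA was hybridised. The labels do not say how many mice gave the cells. The study describes a serum-free step of 24 h ahead of stimuli for most experiments, without saying whether these cultures had it. The serum state at either time is therefore not known. An unloaded culture kept for the same time was not analysed here, and the effect of the strain therefore cannot be told apart from that of the longer culture. No sample from the first hours was analysed here either, and the early peak itself was therefore not measured.

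Early response genes are transcribed quickly after serum, stress or stretch, without new protein having to be made first, and most of their transcripts are short-lived. Fos and Jun proteins pair through a leucine zipper into the dimeric factor AP-1. Jun proteins can pair among themselves, whereas Fos proteins need a Jun partner. In cartilage AP-1 is known as a regulator of matrix-degrading enzymes such as Mmp13. Egr1 is a zinc finger factor and Myc binds DNA together with Max, and both are textbook examples of genes induced by growth factors.

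The DNA just before the start of these genes is shown because such DNA can hold elements through which signals of this kind act. RefSeq windows of the 250 bases before an annotated start site on GRCm38.p6 were used for 7 of the 10 genes, all except Egr1, Myc and Fosl1, and other start sites of a gene were not searched. The Fosb window reaches 73 bases into the gene's annotated span, and the other 6 lie outside that of their gene. The array design itself is annotated on mm9. Printed are those of Fos, the member whose probe has the most spots, of Jun, the founding Jun gene, and of Jund, the member with the highest ratio at 24 h. Capitals mark every match to a searched motif.
Fos, chr12:85473640-85473889, forward strand: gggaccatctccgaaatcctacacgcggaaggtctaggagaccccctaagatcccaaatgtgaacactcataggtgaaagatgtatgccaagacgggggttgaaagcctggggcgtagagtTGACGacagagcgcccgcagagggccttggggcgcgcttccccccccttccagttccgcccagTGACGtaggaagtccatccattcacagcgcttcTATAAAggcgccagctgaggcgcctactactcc
Jun, chr4:95052223-95052472, reverse strand: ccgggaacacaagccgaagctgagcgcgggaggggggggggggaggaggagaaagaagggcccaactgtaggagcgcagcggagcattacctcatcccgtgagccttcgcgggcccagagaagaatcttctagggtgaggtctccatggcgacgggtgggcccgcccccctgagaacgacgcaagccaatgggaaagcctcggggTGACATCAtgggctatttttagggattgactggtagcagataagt
Jund, chr8:70697489-70697738, forward strand: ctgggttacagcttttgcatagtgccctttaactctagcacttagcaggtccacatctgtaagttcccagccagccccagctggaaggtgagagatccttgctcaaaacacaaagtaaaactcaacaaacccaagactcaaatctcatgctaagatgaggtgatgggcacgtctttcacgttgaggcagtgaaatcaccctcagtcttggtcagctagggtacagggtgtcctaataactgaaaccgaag
The motifs searched on both strands were the cAMP response element TGACGTCA, its shorter core TGACG, which lies within it, the AP-1 element TGACTCA, its longer variant TGACATCA, the Egr elements GCGGGGGCG and GCGTGGGCG, the Myc element CACGTG, the CArG box of serum response factor and the TATA element TATAAA. The Fos window held TGACG at -129 and -66 and TATAAA at -33, counted from the base before the start as -1. The Jun window held TGACATCA at -45, and the Jund window held none of these motifs. TGACG was found in 4 of the 7 windows (Fos, Fosb, Junb and Atf3), against 17.8% of 32851 windows of the same length. TGACATCA was in 2.93% of all windows and TATAAA in 12.4%. GCGGGGGCG was found in Fosb and Fosl2 and in 2.57% of all windows. TGACGTCA (1.55% of all windows), TGACTCA (4.46%), GCGTGGGCG (0.536%), CACGTG (6.02%) and the CArG box (1.47%) were in 0 of the 7. Bases farther upstream were not searched, nor were Egr1, Myc and Fosl1. The counts therefore do not show that a gene lacks an element such as the CArG box. A match is a description of the letters and not a site.

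The values are the scanner software's background-subtracted intensities. A level is log2 of the intensity minus that of the 75th percentile of the array (466.4 before loading, 466.2 at 24 h), and a log2 ratio is the level at 24 h minus the level before. Since each group holds a single array, differences have no replicate check and were not tested. The error printed is the within-array error that the software gives for both spots. Intensities of different probes were used to choose the brightest probe of a gene, set against the 75th percentile and summed over markers. They were not read as amounts of RNA of a gene relative to other genes. The dimmest probes called well above background had intensities of 17.3 (before) and 17.8 (24 h). The labelled cell type was checked first. All 8 chondrocyte markers listed, among them Col2a1, Acan and Sox9, were called, with log2 ratios from -0.82 (Col11a1) to 0.40 (Hapln1).

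All 10 early response genes stood well above background at both times, and 6 of them had a mean level above the 75th percentile. One of the 10, Fosl1, was more than 2-fold lower at 24 h, and 0 were more than 2-fold higher. Among all 14231 detected genes, 1.83% were more than 2-fold lower and 0.668% more than 2-fold higher. The log2 ratio was below 0 in 9 of the 10 genes, against 52.4% of all detected genes. Their median log2 ratio was -0.34, against -0.01 over all detected genes. A total of 4 (Fos, Fosl1, Egr1 and Myc) were lower by more than 2 within-array errors, against 9.4% of all detected genes. The count below 0 came to 7 with median, quantile and spike-in scaling and to 8 with loess, since Fosb and Fosl2 lay close to 0.

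**Figure D1:**
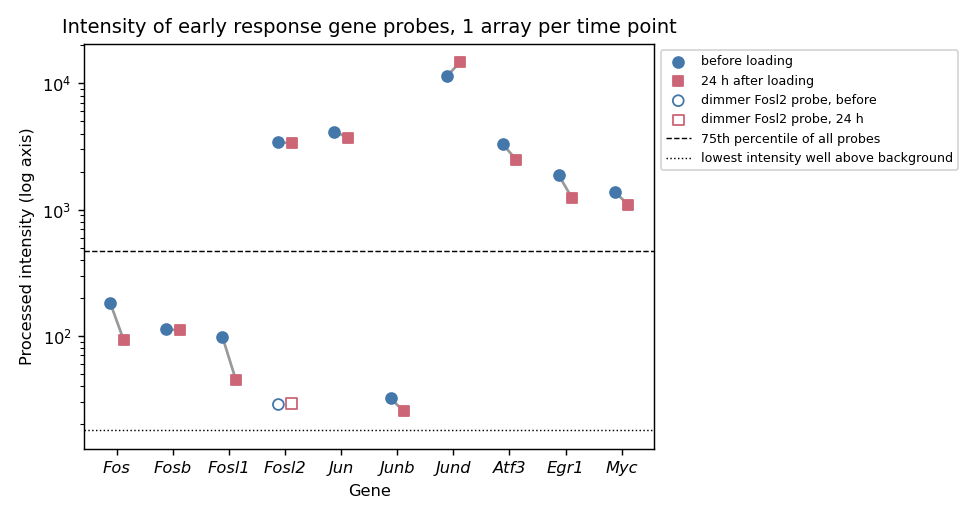
Processed intensity (log axis) of the probe of each of the 10 genes before loading (circles) and 24 h after (squares), 1 array each, with the dimmer second probe of Fosl2 in open symbols. The dashed line is the 75th percentile of all probes and the dotted line the lowest intensity well above background. Fos and Fosl1 show the steepest lines downwards, and Jund is the only gene whose representative probe is higher at 24 h.

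Fos (NM_010234), the founding AP-1 partner of Jun, was the best measured of the 10, because its probe is printed 10 times on the array. The software flagged 2 of the 10 spots as outliers, which left 8. Over these 8 spots the intensity lay between 172 and 196 before loading, with a median of 184. At 24 h it lay between 82.3 and 106, with a median of 95.9. All spots were thus brighter before loading, and the intensities of the arrays did not overlap. The mean log2 ratio was -0.98, with an SD of 0.14 between spots and a within-array error of 0.08, or 1.97-fold lower. The lowest ratio of a spot was -1.16 and the highest -0.75, and 4 of the 8 spots passed 2-fold. With the 2 flagged spots the mean was -0.96. Spots of 1 array share their RNA and their labelling, so this spread covers the array alone. Of all detected genes, 1.88% had a lower ratio than Fos. The size depended on the background correction. With normexp correction and an offset of 50 the log2 ratio was -0.62, and with an offset of 0, chosen after seeing the data, it was -0.85.

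**Figure D2:**
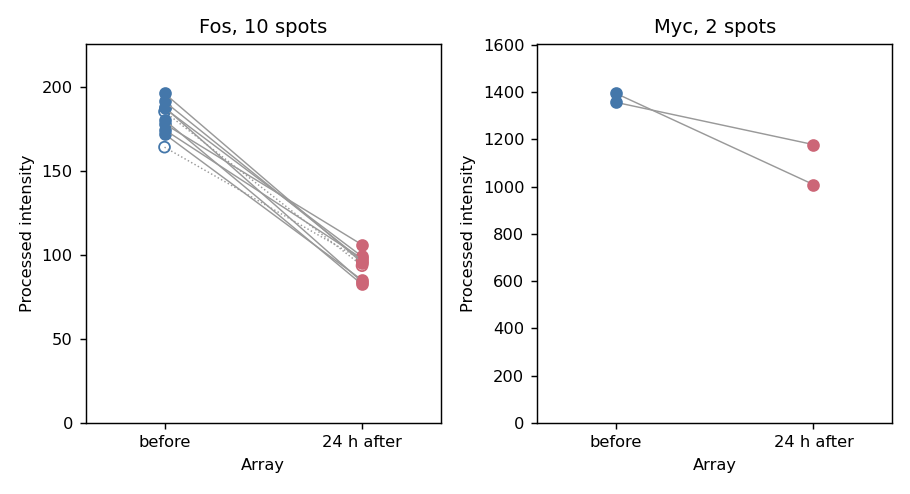
Processed intensity of each spot of the Fos probe (10 spots) and the Myc probe (2 spots) before loading and 24 h after, with lines joining the same position on both arrays and open symbols for spots flagged as outliers. Every Fos spot lies between 164 and 196 before loading and between 82.3 and 106 at 24 h.

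The ratio of Fosl1 differed from that of Fos by less than 1 error (0.15, combined error 0.27), whereas Fosb and Fosl2 stood apart from both. Fosl1 (NM_010235), which encodes Fra-1, a subunit known to accumulate later than Fos, went from an intensity of 98.7 to 45.0. It had the lowest ratio of the 10, -1.13 with a within-array error of 0.26, or 2.19-fold lower. Its call rested on 1 dim spot and ended with normexp correction, at -0.55 with an offset of 50 and -0.89 with an offset of 0. Fosb (NM_008036), whose product can replace Fos in the dimer, had intensities of 112 and 111, a log2 ratio of -0.02 with an error of 0.22. Fosl2 (NM_008037), which encodes Fra-2, had intensities of 3416 and 3354 on its brighter probe, a log2 ratio of -0.03 with an error of 0.20. Its dimmer probe had 28.5 and 29.2, a log2 ratio of 0.03 with an error of 0.38. The sign of Fosb and of Fosl2 turned under 4 of 10 other settings each. Within the family, the log2 ratio of Fosl2 lay above that of Fos by 0.95, with a combined error of 0.22, and above that of Fosl1 by 1.11 with an error of 0.33. Such a difference between genes of the same arrays does not move when every value of an array is multiplied by a constant, but it moved with the background correction. With normexp correction and an offset of 50, these differences came to 0.56 and 0.49.

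None of the Jun family genes differed from 0 by more than 2 errors. Jun (NM_010591), the transactivating AP-1 subunit, was read at 4145 and then 3720, a log2 ratio of -0.16 with an error of 0.20. Junb (NM_008416), often described as a restraining subunit, had a dim probe with intensities of 31.9 and 25.1, a log2 ratio of -0.34 with an error of 0.33. Jund (NM_010592), a subunit known for being expressed also in resting cells, had 11390 before loading and 14655 at 24 h. Its log2 ratio of 0.36, with an error of 0.20, was the only one above 0, and 90.3% of detected genes had a lower ratio. The ratio of Jund lay above that of Fos by 1.34, with a combined error of 0.22. It lay above that of Egr1 by 0.97 with an error of 0.29 and above that of Myc by 0.70 with an error of 0.25. Against Jun the difference was 0.52 with an error of 0.29 and against Junb 0.71 with an error of 0.39, both less than 2 errors.

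Atf3 (NM_007498) encodes a stress-induced factor that can pair with Jun proteins. Its intensity was 3289 before loading and 2490 at 24 h, a log2 ratio of -0.40 with an error of 0.20 or 1.32-fold lower, which is less than 2 errors from 0. Egr1 (NM_007913) had 1870 before loading and 1226 at 24 h, a log2 ratio of -0.61 with an error of 0.20 or 1.53-fold lower. Its ratio lay between -0.64 and -0.51 under 9 other settings and at -0.66 with normexp correction without an offset. Of all detected genes 5.31% had a lower ratio than Egr1. Myc (NM_010849) was read from 2 spots. Their intensities were 1357 and 1395 before loading and 1178 and 1009 at 24 h, without overlap. Both spots of an array share their RNA and labelling, so this says nothing of replicate cultures. The log2 ratios of the spots were -0.20 and -0.47, with a mean of -0.34 (within-array error 0.14) or 1.26-fold lower. Myc passed 2 errors with its smaller error over 2 spots, whereas Atf3, with 1 spot, had a lower ratio and did not. The ratio of Egr1 lay below that of Myc by less than 2 errors, since the difference was 0.27 with an error of 0.25.

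**Figure D3:**
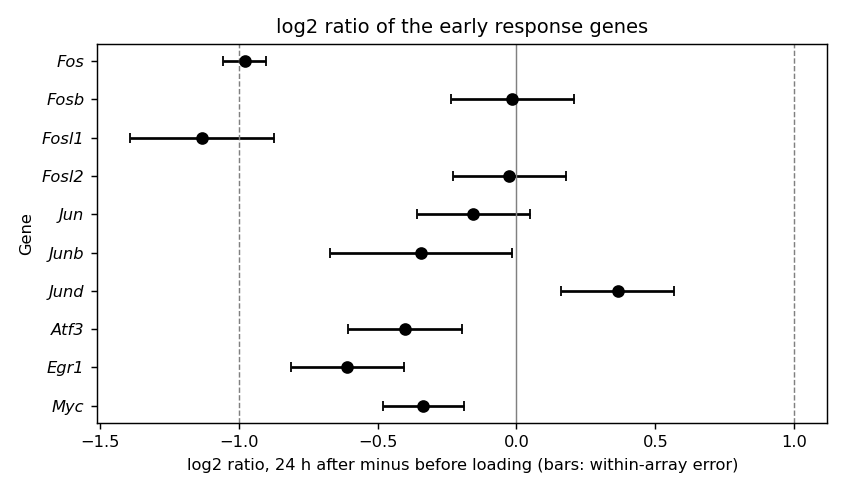
Log2 ratio (24 h after minus before loading) of the 10 genes, where points are the representative probes, bars the within-array error, and dashed lines 2-fold. Fosl1 (-1.13) lies past the 2-fold line, Fos (-0.98) next to it, Fosb and Fosl2 at 0 and Jund (0.36) above 0.

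None of the 10 genes had a used spot lying among 3 or more spots, within 100 µm, that had changed more than 2-fold in the same direction. Markers of other cells were set beside these values. The summed intensity of 4 adipocyte markers was 868 before loading and 1833 at 24 h, and Adipoq, Plin1 and Fabp4 had log2 ratios of 2.29, 1.01 and 0.95. Lep, the last of the 4, was not well above background on both arrays, at 5.78 and 4.35 (log2 ratio -0.41, error 0.61). The 4 macrophage markers with a named probe summed to 4090 and 3899, most of it from the brightest Csf1r probe (3646 and 3288, log2 ratio -0.15). Dimmer probes of Csf1r were above 0, at 0.20 (845 and 967) and 0.27 (33.0 and 39.9, error 0.32). The other 3 markers were above 0, with Ptprc, dim at 20.9 and 46.1, at 1.14 (error 0.35), Lyz2 at 0.46 (error 0.20) and Adgre1 at 0.09 (error 0.26). The dimmer probe of Adgre1 had -0.08. The 4 endothelial markers summed to 12894 and 12520, nearly all of it from the brighter Kdr probe, which has 1 spot. The other Kdr probe, read from 9 spots, was not well above background, at 5.05 and 5.63. The defining markers Cdh5 and Tek were not well above background on both arrays. Skeletal muscle markers summed to 1071 and 866, most of it from Acta1, with Myod1 and Ckm not well above background on both arrays. The 3 fibroblast-type collagens had log2 ratios between -0.04 and 0.13. The part of these cells in the ratios of the early response genes was not tested, and in such bulk RNA fewer cells of a type and less RNA per cell cannot be told apart.

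Genes around these 10 were listed in 8 groups. In the 44 other early response genes, 38 were detected, and 0 of them were more than 2-fold lower and 0 more than 2-fold higher. Their median log2 ratio was -0.21, with 27 of the 38 below 0, against 52.4% of all detected genes. Plk2, a kinase induced by serum and stress, had the lowest ratio, from an intensity of 641 to 347 (log2 ratio -0.88, error 0.21). Ptgs2, the inducible cyclooxygenase, was read from 10 spots and is named outside the rule for that reason. Its spots lay between 118 and 170.0 before loading and between 67.8 and 95.5 at 24 h, with no overlap, and the mean log2 ratio was -0.87 with an SD of 0.13 between spots. Mcl1, an anti-apoptotic gene, had the highest ratio of the group, 0.33 with an error of 0.20, but its dimmer probe had -0.30. Egr3, Egr4, Nr4a3, Areg, Il6 and Lif were not well above background on both arrays.

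Among 23 detected bZIP factors, AP-1 partners and others of that class, Nfe2 and Maff were more than 2-fold lower and 0 were more than 2-fold higher. Over all detected genes these shares were 1.83% and 0.668%. The median of the bZIP factors was -0.06, which came to 0.04 with median scaling. Nfe2, an erythroid factor, had intensities of 49.1 and 19.4 (log2 ratio -1.34, error 0.36). Maff, a small Maf protein, had 87.5 and 39.5 (-1.14, error 0.27). Both were dim, and with normexp correction neither remained past 2-fold. Atf6, a sensor of endoplasmic reticulum stress, had the highest ratio, 0.37 with an error of 0.21. None of the 30 detected upstream kinases and factors passed 2-fold, and their median was 0.04. In that group Srf, which binds the CArG box, had the lowest ratio, -0.43 (brighter probe) and -0.08 (dimmer probe). Of the 14 detected feedback inhibitors 0 passed 2-fold, and the median was -0.19, or 0.01 when dim probes were kept. The phosphatase gene Dusp2 had the lowest ratio (-0.96, error 0.38, intensities 41.9 and 21.6), and Zfp36, which promotes the decay of early transcripts, the highest (0.47, error 0.29). Dusp1 and Dusp6, MAP kinase phosphatases of brighter probes, had -0.51 and -0.55, each with an error of 0.20. Dusp16 and Dusp7 of the same group were above 0, at 0.29 (intensities 659 and 807) and 0.10 (760 and 812). Dusp1, Dusp6, Dusp7 and Dusp16 were named after their values were seen.

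The genes downstream were set beside them. None of the 17 detected AP-1 targets passed 2-fold on the brightest probe, but 13 of them were below 0, against 52.4% of all detected genes. Their median was -0.36, which came to -0.17 when dim probes were not left out. A dimmer, detected probe of Cd44 went from 572 to 276 (-1.05, error 0.21), whereas the brightest Cd44 probe had -0.07. The remaining Cd44 probes were not well above background. On the brightest probes Tnc, a matrix glycoprotein, had the lowest ratio, from 163 to 89.2 (-0.87, error 0.22), with -0.57 on its dimmer probe. Mmp13, the collagenase, had the highest, from 617 to 867 (0.49, error 0.20). Timp1, a protease inhibitor with a ratio of -0.74, and Hmox1, haem oxygenase, with -0.70 and -0.43 on its 2 probes, were named after their values were seen. None of the 17 detected Egr1 co-factors and targets passed 2-fold, with a median of -0.06 that came to 0.04 with median scaling. In them Hpse, the heparan sulfate-cleaving enzyme, had the lowest ratio (-0.91, error 0.22) and Icam1, an adhesion molecule, the highest (0.52, error 0.21). In the Myc network, 1 of 13 detected genes, Mxd3, was more than 2-fold lower, against 1.83% of all detected genes. Its intensities were 154 and 65.8 (-1.23, error 0.23), and it came inside 2-fold with normexp correction. Mxd3 encodes a Max partner of the Mad family. Max, the partner of Myc itself, had the highest ratio, from 5696 to 7346 (0.37, error 0.20). None of the 32 detected Myc targets passed 2-fold, with a median of -0.09 that came to 0.01 with median scaling. Of these 32, 25 were below 0, against 52.4% of all detected genes. Only 3 were lower by more than 2 within-array errors, against 9.4% of all detected genes. Wdr43, a ribosome biogenesis gene, had the lowest ratio (-0.68, with -0.14 on its dimmer probe) and Ccnd2, cyclin D2, the highest (0.48, error 0.20).

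**Figure D4:**
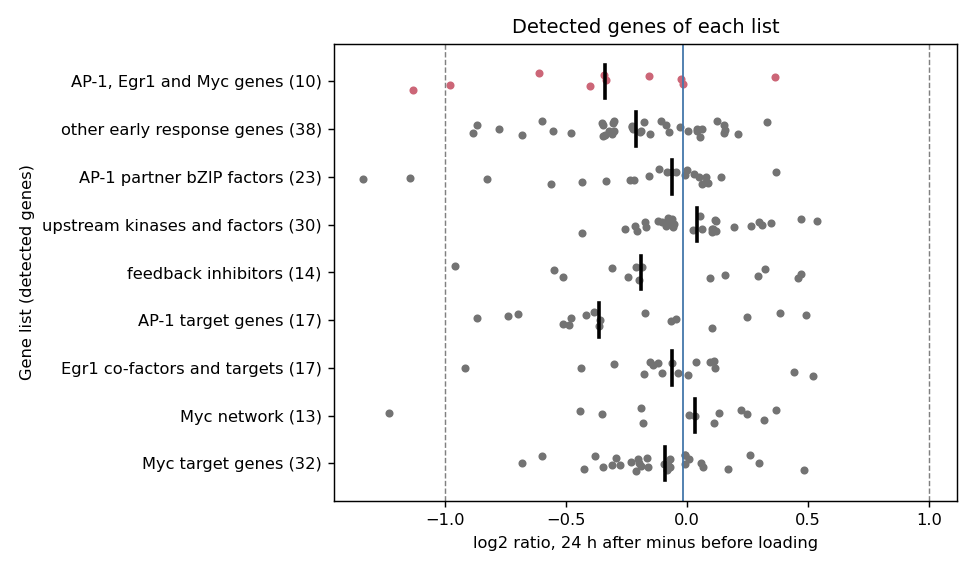
Log2 ratios of the detected genes of each list (points), with the number of detected genes in brackets, the median of the list as a black bar, the median of all detected genes as a blue line and dashed lines at 2-fold. The medians of the AP-1, Egr1 and Myc genes (-0.34) and of the AP-1 targets (-0.36) are the lowest, and 1 of the 10 early response genes lies past 2-fold.

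**Figure D5:**
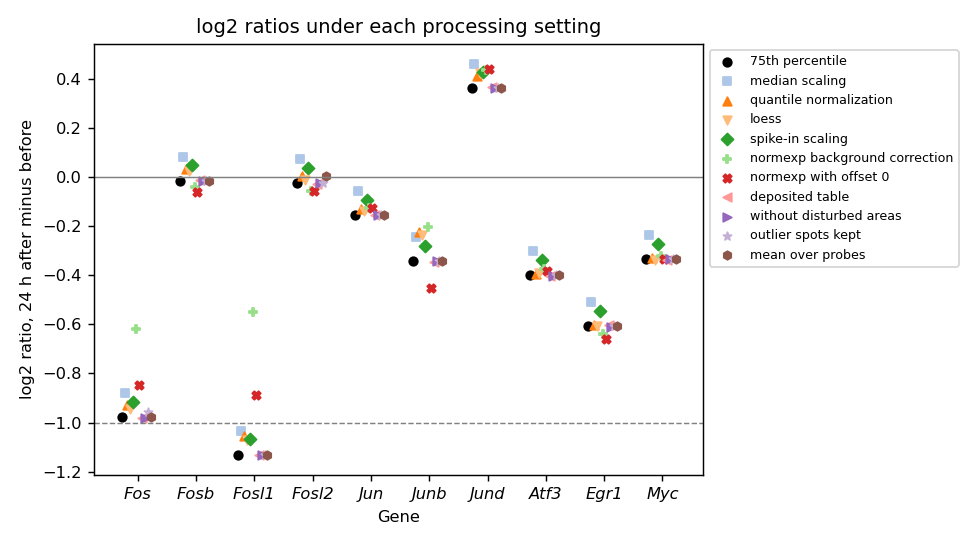
Log2 ratio of the 10 genes under the 75th percentile scaling and 10 other settings, each a symbol. Fos, Egr1, Atf3, Junb, Jun and Myc stay below 0 and Jund above 0 under all of them, while Fosl1 leaves the range past 2-fold with both normexp settings.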

How the data were processed

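Gene expression was measured on 2 one-colour SurePrint G3 Mouse arrays, 1 before and 1 24 h after cyclic tensile strain. The authors extracted the images with Agilent Feature Extraction 10.10.1.1 and deposited background-subtracted intensity values per spot that were not normalized across arrays. A deposited table holds the same intensity rounded, with a largest difference of 0.497% over 59305 spots. Its scale is linear, with column medians of 35.4 and 32.9, and it is not centred. The 10 genes and the gene lists were chosen with earlier results of these data known.

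Outlier spots were removed (141 before loading, 138 at 24 h), and repeated spots were then averaged as log2 values, which left 55678 probes. Each array was centred on its 75th percentile. A total of 27235 probes were named by their accession without version through RefSeq (GRCm38). The brightest probe stands for a gene, which was called detected if most spots of that probe exceeded background clearly at both times. Of the listed genes 1, Atf7, had no named probe. Named genes are all 10 members, list genes past 2-fold on a detected probe and the highest and lowest of each list. Some items under this rule and among the markers are not reported here. No spot was saturated, and well above background were 59.1% of spots before loading and 57.7% at 24 h. The number of arrays limits the precision. Alternatives were median, quantile, loess and spike-in scaling, normexp, the deposited table, the mean over probes, filters, thresholds and leaving out areas of the array disturbed by neighbouring changes. The code for the calls was run on simulated data with larger changes than those of the 10 genes. That run cannot bear on changes of their size. Python 3.11.15 and limma 3.58.1 in R 4.3.3 were used.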

Additional observations from a re-analysis of the deposited data

How the results depend on the processing

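No paired analysis was possible because each group holds a single array. Keeping flagged spots and normexp with an offset of 0 were chosen after seeing the data. With normexp correction and an offset of 50, on the median spot signal since the files used hold no mean, the log2 ratio of Fos was -0.62 and that of Fosl1 -0.55. The number of early response genes more than 2-fold lower was then 0, and so were those of the bZIP factors and of the Myc network, while 38 of all genes were higher and 117 lower. With an offset of 0 the ratio of Fos was -0.85, and with median scaling -0.88. An offset adds a constant to every intensity and shrinks ratios of dim probes by construction. For the remaining settings the cause was not tested. With a ratio passing 2-fold by more than 2 errors, 0 early response genes, 0 bZIP factors and 0 Myc network genes were lower, and of all genes 25 were higher and 99 lower. With a threshold of 1.5-fold, 3 of the 10 early response genes were lower (Fosl1, Fos and Egr1), as were 5 of 38 other early response genes. So were 3 of 23 bZIP factors, 1 of 14 feedback inhibitors, 1 of 17 in the Egr1 group and 3 of 17 AP-1 targets. In the Myc network it was 1 of 13 and among the Myc targets 2 of 32. Of all 14231 detected genes 520 were then higher and 831 lower. Without the filter on dim probes 1 Myc network gene, Mycl, was higher (1.69, error 1.53), and the bZIP factor Nrl was lower (-1.49, error 1.54). Neither was well above background on either array. Of all genes 492 were then higher and 983 lower. With detection on at least 1 array these were 192 and 507. Median scaling gave 130 higher and 205 lower (38.8% higher), against 95 and 260 (26.8%) in the values reported. The medians near 0 turned sign for the bZIP factors and the Egr1 group with median scaling (0.04 for both) and spike-in scaling, for Myc targets with median scaling (0.01), for the Myc network with the mean over probes and for feedback inhibitors without the filter (0.01). Of 450 alternative values 423 stayed within the error or within 1.5 times the count. The median of the 10 genes lay between -0.34 and -0.24. Signal over background limits Junb, Fosl1, Nfe2 and Maff, whose probes are dim.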
